A study of Mus musculus with 12 samples.

Results

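Potassium channel genes were examined across 12 mouse heart libraries. They were taken as the protein-coding genes whose symbol begins with Kcn, and 93 genes, all but 1 gene of the family as listed, met this rule among 52858 genes listed, of which 22027 were protein-coding. The hearts came from C57BL/6J mice and from Slit2-Tg mice, which carry a full-length human SLIT2 cDNA under a CMV promoter and were typed by PCR for heterozygotes. All hearts were from male mice of 3 to 5 months and were perfused outside the body on a Langendorff apparatus. IR hearts underwent 20 min of ischemia without flow followed by 40 min of reperfusion, and non-IR hearts were perfused throughout. The 4 groups were named C57-non-IR and C57-IR for the background strain and Slit2-non-IR and Slit2-IR for the transgenic mice, and each held 3 libraries. The labels do not say whether each library came from 1 heart, so p-values measure the spread between these libraries.

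Potassium channels let potassium leave the cardiomyocyte, which ends each action potential and sets the resting membrane voltage. The pore-forming subunits are voltage-gated (Kv), inwardly rectifying (Kir), calcium-activated or 2-pore (K2P) proteins, and small auxiliary subunits alter how the pores open and how many reach the membrane. The mouse ventricle repolarises mainly through a fast transient outward current and sustained Kv currents, whereas the ATP-sensitive channels (KATP) are known for opening when the energy supply of the heart fails, as in ischemia. In ischemia potassium also accumulates outside the cells.

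Each library held between 16601154 and 24841291 reads on genes, as recovered from the deposited values, and 19.7% to 26.0% of them were mitochondrial. Values are FPKM, read fragments scaled to gene length and sequencing depth, a unit per length in which different genes may be set side by side. All 8 ventricular cardiomyocyte markers were expressed in every group, with summed levels of 23966 to 32264 FPKM. The library of Slit2-IR replicate 1 stood apart: its 7 atrial markers summed to 1714 FPKM against 19.98 to 233 FPKM in the other libraries, its 6 conduction system markers to 19.2 FPKM against 6.09 to 9.23 FPKM, and its 10 skeletal muscle markers to 21.6 FPKM against 3.56 to 10.5 FPKM. Not all markers of these lists were high in this library. Casq1 alone made 17.9 FPKM of its skeletal muscle sum, whereas Myh1, Myh2 and the atrial marker Bmp10 were at 0 there. The conduction system marker Tbx3 had 3.96 FPKM, within the range of the other libraries. Of the defining markers, Isl1, Myh4 and Chat were at 0 in all libraries. The mouse Slit2 row had 0.81 FPKM in Slit2-IR replicate 2 (498 reads) and lay between 0.08 and 0.28 FPKM in the other libraries. It did not separate the genotypes, but the transgene is a human cDNA, so this row does not check the labels. In bulk hearts, fewer cells of a type and less RNA per cell cannot be told apart.

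Kcnk5 and Kcne4 were the channel genes with the smallest adjusted p-values for the mean effect of IR. The regions around their starts are shown because both are described below and both hold the same 6-base motif. The sequences are from RefSeq on GRCm38.p6, the mm10 build of the files, and run from 250 bases before to 50 bases after the annotated start. Kcnk5 lies on the minus strand at chr14:20181733-20182032 and Kcne4 on the plus strand at chr1:78816661-78816960. Capitals mark every match on either strand to CACGTG (an E-box), ACGTG (the core of the hypoxia response element, which overlaps the E-box), GGGCGG (a GC box) or TGACG (part of a cyclic AMP response element).
Kcnk5: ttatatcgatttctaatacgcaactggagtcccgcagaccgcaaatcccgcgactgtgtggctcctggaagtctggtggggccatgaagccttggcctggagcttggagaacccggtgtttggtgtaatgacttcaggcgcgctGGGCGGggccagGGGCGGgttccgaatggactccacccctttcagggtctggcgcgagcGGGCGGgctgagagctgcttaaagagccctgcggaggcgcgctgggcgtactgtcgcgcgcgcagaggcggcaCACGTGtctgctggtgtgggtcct
Kcne4: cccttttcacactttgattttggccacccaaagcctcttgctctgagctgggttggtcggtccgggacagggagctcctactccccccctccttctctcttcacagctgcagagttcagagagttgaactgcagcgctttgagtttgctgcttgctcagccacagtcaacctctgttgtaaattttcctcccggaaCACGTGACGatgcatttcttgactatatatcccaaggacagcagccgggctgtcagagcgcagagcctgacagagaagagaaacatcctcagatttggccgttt
Kcnk5 held CACGTG from base 27 on, with the start counted as the first base, and GGGCGG 106, 94 and 47 bases before the start. Kcne4 held CACGTG 54 bases before the start, followed by TGACG with which it shares bases. Over all 32851 promoters of this length, 7.15% held CACGTG, 35.66% held GGGCGG and 20.81% held TGACG. Of the channel genes, 68 had an entry in this table with 93 promoters between them, and 7 of these promoters (7.53%) held CACGTG. No match to TGACGTCA, TGANTCA, GAANNTTC or TATAAA lay in either of the regions printed, while 1.79%, 7.81%, 7.86% and 13.62% of all promoters held them. A match is a description of the letters only.

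The 93 genes covered a wide range of levels. A mean of at least 10 FPKM was reached by 9 genes, 14 had a mean of 1 to 10 FPKM, 27 of 0.1 to 1 FPKM and 34 below 0.1 FPKM with some reads. The other 9 (Kcnh5, Kcnk9, Kcnk10, Kcnk15, Kcnk16, Kcnk18, Kcnmb2, Kcns2 and Kcnv1) had 0 reads in all libraries. The summed level was 297 to 393 FPKM per library, of which the 10 highest genes made 79.7% to 84.7%. The summed level of the groups overlapped, with medians between 299 FPKM in C57-IR and 328 FPKM in Slit2-IR hearts.

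**Figure D1:**
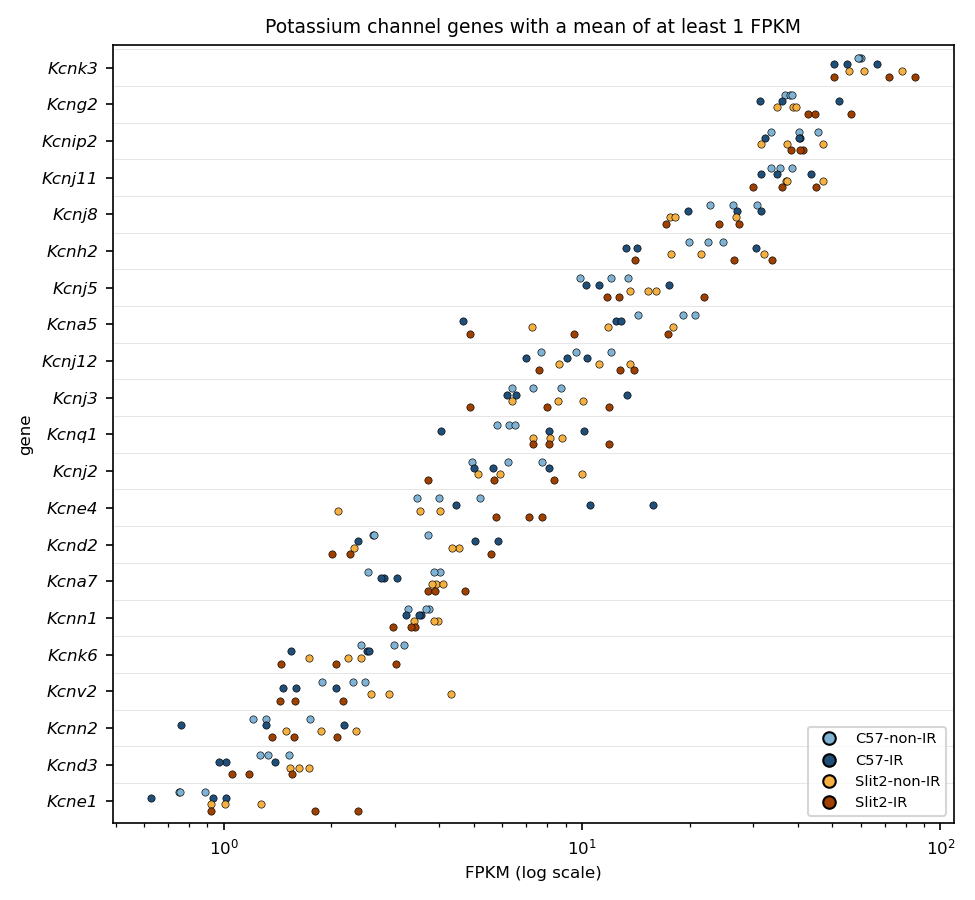
FPKM on a log scale (horizontal axis) of 21 potassium channel genes with a mean of at least 1 FPKM (vertical axis), 1 point per library, coloured by group. Kcnk3 lies highest, with 50.3 to 85.1 FPKM, and the groups overlap for most genes.

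The most abundant member was Kcnk3, which encodes the acid-sensitive background channel TASK-1, with a mean of 62.7 FPKM and a range of 50.3 to 85.1 FPKM. In every library it lay above the next gene. It was followed by Kcng2 (40.8 FPKM), a silent Kv subunit that forms no channel alone, Kcnip2 (39.1 FPKM), the KChIP2 subunit needed for the fast transient outward current, and Kcnj11 (37.5 FPKM), the Kir6.2 pore of the KATP channel. The ranges of these last 3, which were 31.4 to 56.1, 31.5 to 47.0 and 30.0 to 47.0 FPKM, overlapped, so their order is not resolved. Kcnj8 (Kir6.1, the KATP pore of vessels) had 24.1 FPKM, Kcnh2 (ERG, the rapid delayed rectifier) 22.6 FPKM, Kcnj5 (Kir3.4 of the acetylcholine-activated channel) 13.8 FPKM, Kcna5 (Kv1.5, ultrarapid and sustained current) 12.7 FPKM and Kcnj12 (Kir2.2) 10.3 FPKM. These 5 genes also overlapped with their neighbours in the order.

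Of the KATP subunits, Abcc9 (SUR2), the regulatory partner, had a median of 39.0 FPKM and Abcc8 (SUR1) of 3.63 FPKM. Among the transient outward genes, Kcnd2 (Kv4.2) had a mean of 3.598 FPKM, Kcnd3 (Kv4.3) 1.35 FPKM and Kcna4 (Kv1.4) 0.18 FPKM. The inward rectifiers Kcnj2 (Kir2.1) and Kcnj3 (Kir3.1) had 6.37 and 8.19 FPKM. The slow delayed rectifier was represented by Kcnq1 with 7.69 FPKM and its subunit Kcne1 with 1.11 FPKM. Low genes included the BK pore Kcnma1, whose highest library reached 0.06 FPKM, although its smooth muscle subunit Kcnmb1 had 0.57 FPKM.

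Tests were made on log2(FPKM + 1) with limma over 15240 genes, and 50 of the 93 channel genes passed the filter on low values. None of the other 43 exceeded a mean of 0.16 FPKM or 18 reads in a library. For genes below about 1 FPKM this scale compresses differences, so ratios of group means, group means or levels per library are also given. The Benjamini-Hochberg adjustment was made over all tested genes of a comparison.

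The effect of IR over both genotypes was asked first, with 6 IR and 6 non-IR libraries. Kcnk5 rose and was the only channel gene with an adjusted p under 0.05, that is 1 of 50 tested genes, against 3.49% of all genes tested. Kcnk5 encodes TASK-2, an alkaline-activated 2-pore channel. Its levels were 0.36, 0.30 and 0.27 FPKM in C57-non-IR, 0.45, 0.55 and 0.46 FPKM in C57-IR, 0.21, 0.36 and 0.23 FPKM in Slit2-non-IR and 0.45, 0.76 and 0.50 FPKM in Slit2-IR hearts. All 6 IR libraries lay above all 6 non-IR libraries. A lack of overlap in either direction, above or below, held for 3.41% of all genes. The mean was 1.83 times as high after IR, and the difference was 0.24 ± 0.05 (SE) on the log2 scale (95% interval 0.12 to 0.36, adjusted p = 0.034 by limma). The gene rests on few reads, with 16 to 22 in C57-non-IR, 27 to 37 in C57-IR, 15 to 28 in Slit2-non-IR and 31 to 62 in Slit2-IR libraries.

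The call of Kcnk5 was lost without any 1 of C57-non-IR 1, 2 or 3, C57-IR 2 or 3, or Slit2-non-IR 1 or 3, where adjusted p-values lay between 0.051 and 0.092. It was also lost without the filter (adjusted p = 0.087) and with scaling to total nuclear reads (0.051).

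Kcne4 encodes a KCNE subunit known to inhibit Kv1.1, Kv1.3 and KCNQ1 channels. It had 3.47, 5.18 and 4.001 FPKM in C57-non-IR, 4.46, 10.5 and 15.8 FPKM in C57-IR, 2.09, 3.52 and 4.03 FPKM in Slit2-non-IR and 5.77, 7.72 and 7.11 FPKM in Slit2-IR hearts. All 3 Slit2-IR libraries lay above those of Slit2-non-IR, whereas C57-IR replicate 1 lay within the C57-non-IR range. The mean was 2.30 times as high after IR, with a log2 difference of 0.95 ± 0.24 (SE) and an adjusted p of 0.056 by limma. Of 20 alternatives, 4 gave an adjusted p under 0.05, namely the replicate number as a block (0.011), leaving out C57-IR replicate 1 (0.002), limma-voom on recovered reads (0.049) and at least 10 reads required in every library (0.048). Under the others it reached up to 0.14.

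Kcne4 was also the lowest in the replicate 1 library of every group, and so were the summed levels of 7 pericyte, 6 fibroblast and 7 immune markers. The most abundant marker of each list, Rgs5, Dcn and Lyz2, was lowest there too, but not all markers followed the sums. The pericyte marker Cspg4 was highest in replicate 1 of C57-non-IR, C57-IR and Slit2-non-IR hearts, and Abcc9 in that of C57-IR and Slit2-non-IR hearts. The fibroblast marker Lum and the immune marker Cd68 were highest in Slit2-non-IR replicate 1. The pericyte sum in replicate 1 was 207 (non-IR) and 222 FPKM (IR) in C57BL/6J hearts and 176 and 152 FPKM in Slit2-Tg hearts, against 202 to 293 FPKM in the other libraries. The part of these cells in the values of Kcne4 was not tested. Over the mean IR effect, 0 of 7 pericyte and 2 of 6 fibroblast markers passed an unadjusted p of 0.05, both higher. The 6 adipose markers summed to 0.86 FPKM or less in C57-non-IR and to 0.12, 14.2 and 17.3 FPKM in C57-IR hearts, and 4 of 5 tested were higher there at an unadjusted p under 0.05. In Slit2-Tg hearts they summed to 1.41, 6.68 and 8.01 FPKM without IR and to 10.1, 1.71 and 0.77 FPKM after it. The part of adipose tissue was not tested.

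Kcnv2 encodes Kv8.2, a silent subunit that forms channels only together with other Kv pores. Its levels were 2.30, 1.88 and 2.49 FPKM in C57-non-IR, 1.59, 2.05 and 1.46 FPKM in C57-IR, 2.89, 4.32 and 2.58 FPKM in Slit2-non-IR and 1.44, 2.15 and 1.58 FPKM in Slit2-IR hearts. The groups overlapped in C57BL/6J but not in Slit2-Tg hearts. The non-IR mean was 1.60 times the IR mean, with a log2 difference of -0.44 ± 0.11 (SE) and an adjusted p of 0.060. It passed under 3 of 20 alternatives, which were upper quartile scaling (adjusted p = 0.042), scaling to total nuclear reads (0.037) and the replicate block (0.041). Under the others the adjusted p reached up to 0.14, and it passed in none of the 12 fits without 1 library.

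Without adjustment, 6 of the 50 channel genes (12%) had a p under 0.05, against 15.9% of all genes. Of these, 4 were higher and 2 lower after IR, against 7.93% and 7.97% of all genes. Besides the 3 above, these were Kcna1 (Kv1.1, log2 difference 0.23), Kcna6 (Kv1.6, 0.12) and Kcnd3 (-0.19). Their adjusted p-values were 0.23, 0.16 and 0.21. The means of Kcna6 were 0.11 FPKM in C57-non-IR, 0.20 in C57-IR, 0.13 in Slit2-non-IR and 0.24 in Slit2-IR hearts. The unadjusted p of Kcna1 was above 0.05 without any 1 of C57-non-IR 1 or 2, C57-IR 2, Slit2-non-IR 1 or Slit2-IR 1 (up to 0.068), and that of Kcnd3 without C57-non-IR 3, C57-IR 2 or 3, or Slit2-IR 3 (up to 0.060). With upper quartile scaling or scaling to total nuclear reads the split was 4 higher and 4 lower. In those fits 17.5% and 19.2% of all genes passed in either direction. Kcnd3 is further uncertain because an antisense gene, Kcnd3os, overlaps it with a median of 0.39 FPKM and the use of strand is not given. The median log2 difference of the 50 genes was -0.01, beside 0.004 over all genes tested.

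**Figure D2:**
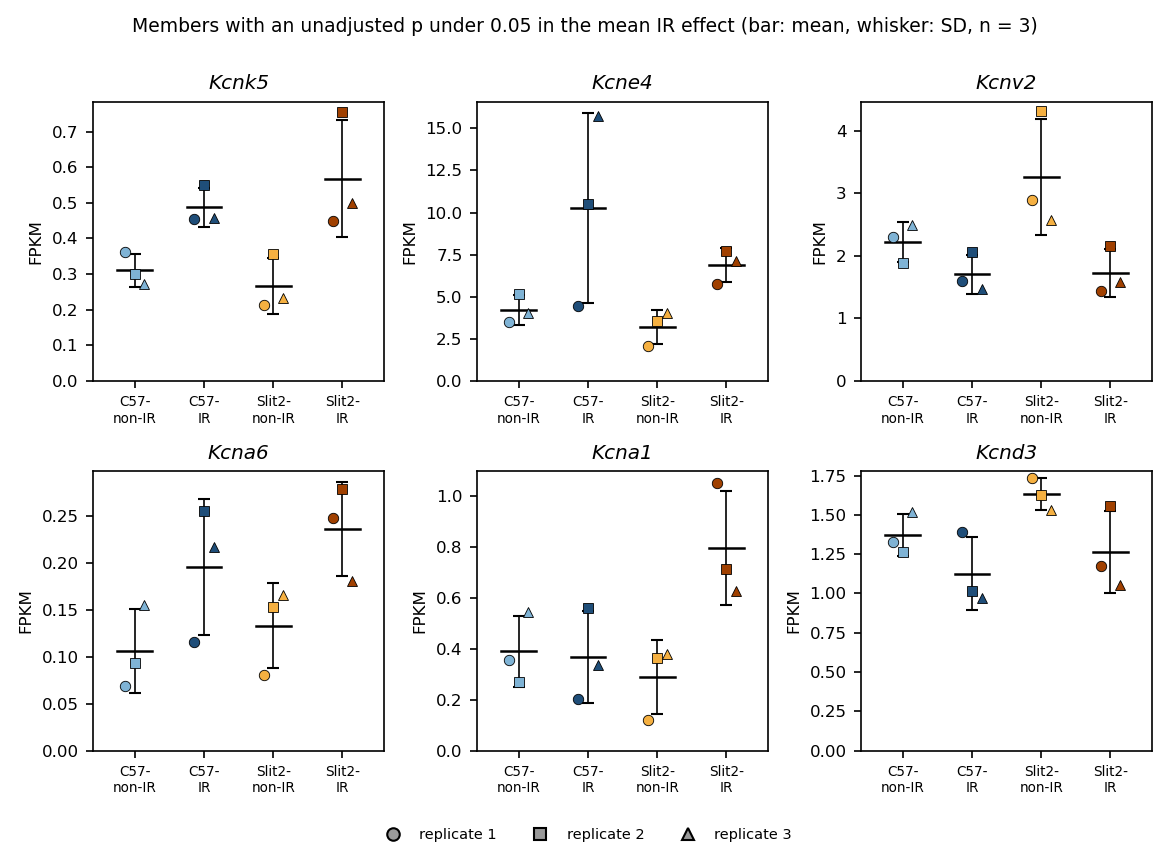
FPKM of 6 potassium channel genes in the 4 groups, 1 point per library with marker shape by replicate number, a bar for the mean and a whisker for the SD (n = 3). For Kcnk5 every IR point lies above every non-IR point, and for each of the other genes drawn the groups overlap in C57BL/6J hearts.

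The abundant genes of the cardiac currents did not pass the test for IR. For Kcnk3 the log2 difference was 0.01 (95% interval -0.28 to 0.29), for Kcnj11 -0.06 (-0.31 to 0.19), for Kcnj8 0.04 (-0.30 to 0.38) and for Kcnh2 -0.14 (-0.68 to 0.41). The interval for Kcnip2 was -0.24 to 0.24 and that for Kcng2 -0.07 to 0.44. These intervals include both a fall and a rise.

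**Figure D3:**
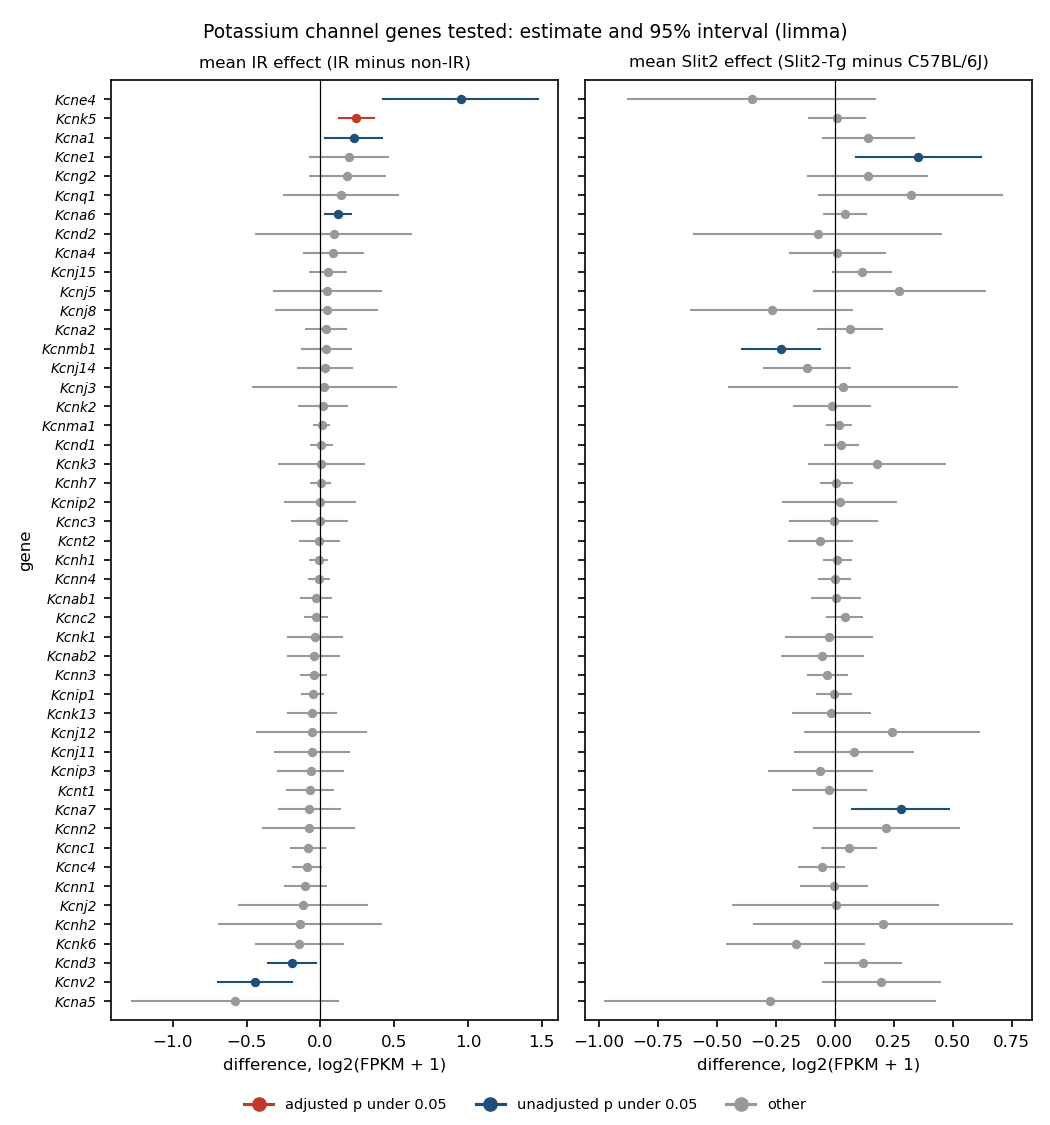
Difference on the log2(FPKM + 1) scale (horizontal axes) with its 95% interval for 48 of the 50 potassium channel genes tested (vertical axis), for IR minus non-IR hearts (left) and Slit2-Tg minus C57BL/6J hearts (right). Kcnk5 has an adjusted p under 0.05 in the left panel, and none does in the right panel.

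In C57BL/6J hearts alone, 0 of 50 channel genes had an adjusted p under 0.05 by limma, against 0.459% of all genes, and 2 of 50 an unadjusted one, against 8.96%. The same test with limma-voom gave 0 and 1, against 0.21% and 8.58% of all genes. The 2 were Kcne4 (log2 difference 0.98 ± 0.34 SE) and Kcnk5 (0.18 ± 0.08 SE). Without C57-IR replicate 1, Kcne4 had a difference of 1.43 and an adjusted p of 0.016, whereas without C57-IR replicate 3 the difference was 0.62 with an unadjusted p of 0.069. The unadjusted p of Kcnk5 was above 0.05 without C57-non-IR 2 or 3 or C57-IR 2 or 3, reaching up to 0.11. The number of channel genes past the unadjusted threshold was 5 without C57-IR replicate 1, against 11.3% of all genes, and 4 without C57-non-IR replicate 1, against 8.27%. It was 1 without C57-non-IR replicate 2, C57-IR replicate 2 or C57-IR replicate 3, against 7.69%, 6.05% and 8.64%.

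Kcna5 did not overlap between these groups. It had 19.1, 20.7 and 14.3 FPKM in C57-non-IR and 4.66, 12.5 and 12.9 FPKM in C57-IR hearts, a ratio of means of 1.80, with an unadjusted p of 0.074 and an adjusted p of 0.63 by limma. Kcna5 and Kcnk5 were the 2 of 50 genes without overlap, against 13.8% of all genes. In Slit2-Tg hearts Kcna5 ranged from 7.26 to 17.9 FPKM without IR and from 4.87 to 17.4 FPKM after it, so those groups overlapped.

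In Slit2-Tg hearts, 0 of 50 channel genes had an adjusted p under 0.05 for IR by limma and 0 by limma-voom, against 0.525% of all genes by limma. An unadjusted p under 0.05 was found for 4 of 50, against 11.2%, and for 7 with limma-voom, against 11.7%. Kcna1, Kcne4 and Kcnk5 were higher (3 genes, against 6.15% of all genes) and Kcnv2 lower after IR (1 gene, against 5.07%), with log2 differences of 0.48 ± 0.12, 0.92 ± 0.34, 0.30 ± 0.08 and -0.63 ± 0.16 (SE). The unadjusted p of Kcne4 was above 0.05 without Slit2-non-IR replicate 1 (0.079) or Slit2-IR replicate 2. With the replicate number as a block, 8 genes had an unadjusted p under 0.05, against 13.7% of all genes in that fit, the others being Kcng2, Kcnmb1 and Kcna6 (higher) and Kcnab2 (lower). The split of 3 higher and 1 lower became 3 and 3 with upper quartile scaling and 3 and 4 with scaling to total nuclear reads. In those fits 12.4% and 12.9% of all genes passed in either direction. The count of 4 was 7 without C57-IR replicate 1 and 8 without Slit2-non-IR replicate 1, against 12.5% and 9.74% of all genes in those fits. Groups did not overlap for 8 of 50 genes, against 16.9% of all genes.

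The effect of Slit2 without IR was compared next. By limma, 0 of 50 channel genes had an adjusted p under 0.05, against 0.0394% of all genes, and 3 of 50 an unadjusted one, against 3.19%. Limma-voom gave 0 and 3, against 0.0262% and 2.88%. The count of 3 was 1 without C57-non-IR replicate 1 or 2 or Slit2-non-IR replicate 2, against 2.56%, 3.54% and 2.53% of all genes, and 5 without Slit2-non-IR replicate 3, against 3.81%. Kcnmb1, the smooth muscle subunit of the BK channel, was the lower of the 3. It had 0.84, 0.61 and 0.83 FPKM in C57-non-IR and 0.49, 0.26 and 0.29 FPKM in Slit2-non-IR hearts, which did not overlap. The C57-non-IR mean was 2.18 times that of Slit2-non-IR, with a log2 difference of -0.38 ± 0.11 (SE) and an adjusted p of 0.89. The libraries held 25 to 60 reads of it.

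Smooth muscle markers followed Kcnmb1 only in part. The 6 markers summed to 150, 113 and 118 FPKM in C57-non-IR and to 127, 82.5 and 68.2 FPKM in Slit2-non-IR hearts. All 6 were lower in Slit2-non-IR hearts by their log2 differences, with a median of -0.31, 1 of them with an unadjusted p under 0.05, and the 2 of these libraries with the lowest sums were also the 2 lowest in Kcnmb1. The sum of Slit2-non-IR replicate 1 lay within the C57-non-IR range, whereas its Kcnmb1 lay below that of all C57-non-IR libraries. Among Slit2-IR libraries, replicate 1 had the lowest sum but replicate 2 the lowest Kcnmb1. The part of smooth muscle in the level of Kcnmb1 was not tested. Kcnmb1 lies within the span of Kcnip1 on the opposite strand of chromosome 11, and Kcnip1 had a median of 0.09 FPKM.

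Kcnmb1 was the 1 lower gene, against 1.77% of all genes. The other 2 genes with an unadjusted p under 0.05 were Kcnv2 (0.39 ± 0.16 SE) and Kcnc2 (a Kv3 pore, 7 to 37 reads per library), both higher in Slit2-non-IR hearts, against 1.42% of all genes. Their groups did not overlap. Without Slit2-non-IR replicate 2, the difference of Kcnv2 was 0.22 with an unadjusted p of 0.17, and its p was also above 0.05 without C57-non-IR replicate 1 or 2 and with only the libraries compared. Kcnc2 had a mean of 0.07 FPKM in C57-non-IR and 0.16 FPKM in Slit2-non-IR hearts. Its log2 difference was 0.10, and 0.06 without Slit2-non-IR replicate 2 (unadjusted p = 0.21). Its p was above 0.05 in 10 of the 12 fits without 1 library, under the replicate block (0.060) and with only the libraries compared. In all, 8 of 50 channel genes did not overlap, against 9.2% of all genes, with 6 higher and 2 lower, against 4.63% and 4.57%. The 6 higher included the delayed rectifier genes Kcnq1 (5.80, 6.26 and 6.52 against 8.80, 8.15 and 7.31 FPKM) and Kcne1 (0.75, 0.75 and 0.89 against 1.01, 0.92 and 1.27 FPKM), whose unadjusted p-values did not pass.

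After IR, 0 of 50 channel genes had an adjusted p under 0.05 for Slit2 by limma or limma-voom, against 0.0459% of all genes by limma. At an unadjusted p under 0.05, 4 of 50 were higher in Slit2-IR hearts and none was lower, against 1.78% and 1.38% of all genes (3.16% in either direction). Among these were Kcna1, Kcna7 (Kv1.7) and Kcne1.

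Kcna7 had 2.81, 3.04 and 2.75 FPKM in C57-IR and 4.72, 3.71 and 3.89 FPKM in Slit2-IR hearts, and did not overlap. It was 1 of 2 such genes of 50, with Kcna1, against 6.47% of all genes. Kcne1 had 0.93, 1.02 and 0.63 FPKM in C57-IR and 1.80, 0.92 and 2.37 FPKM in Slit2-IR hearts, and Slit2-IR replicate 2 lay within the C57-IR range. The log2 differences were 0.40 for Kcna7 and 0.51 for Kcne1.

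Slit2-IR replicate 1 was the library with high sums, though not all markers high, of the atrial, conduction system and skeletal muscle lists. Without it, 2 of these 4 genes kept an unadjusted p under 0.05, namely Kcne1 (log2 difference 0.46) and Kcna1 (0.30). Without Slit2-IR replicate 3, Kcne1 had a difference of 0.33 and an unadjusted p of 0.059, and without C57-IR replicate 3 its p was 0.054. The count of channel genes was 11 without C57-IR replicate 1 and 2 without C57-IR replicate 3, against 4.95% and 2.49% of all genes in those fits.

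Over both conditions, the mean Slit2 effect had 0 of 50 channel genes with an adjusted p under 0.05 by limma and by limma-voom, against 0.131% of all genes by limma, and 4 of 50 with an unadjusted one, against 4.13%. Of these, 3 were higher, against 2.0% of all genes, among them Kcne1 and Kcna7, with means 1.67 and 1.27 times those of C57BL/6J hearts and log2 differences of 0.35 ± 0.12 and 0.28 ± 0.09 (SE). Kcnmb1 was lower (1 gene, against 2.13%), with a log2 difference of -0.23 ± 0.08 (SE). Their adjusted p-values were 0.92 or above. After IR the groups of Kcnmb1 overlapped, with 0.56, 0.53 and 0.78 FPKM in C57-IR and 0.58, 0.34 and 0.73 FPKM in Slit2-IR hearts. Its log2 difference there was -0.07, against -0.38 without IR. No channel gene separated all 6 Slit2-Tg from all 6 C57BL/6J libraries, against 0.413% of all genes. Without C57-IR replicate 1 the count of 4 became 11, against 6.86% of all genes in that fit. The median log2 difference of the 50 genes was 0.01, beside -0.001 over all genes tested.

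**Figure D4:**
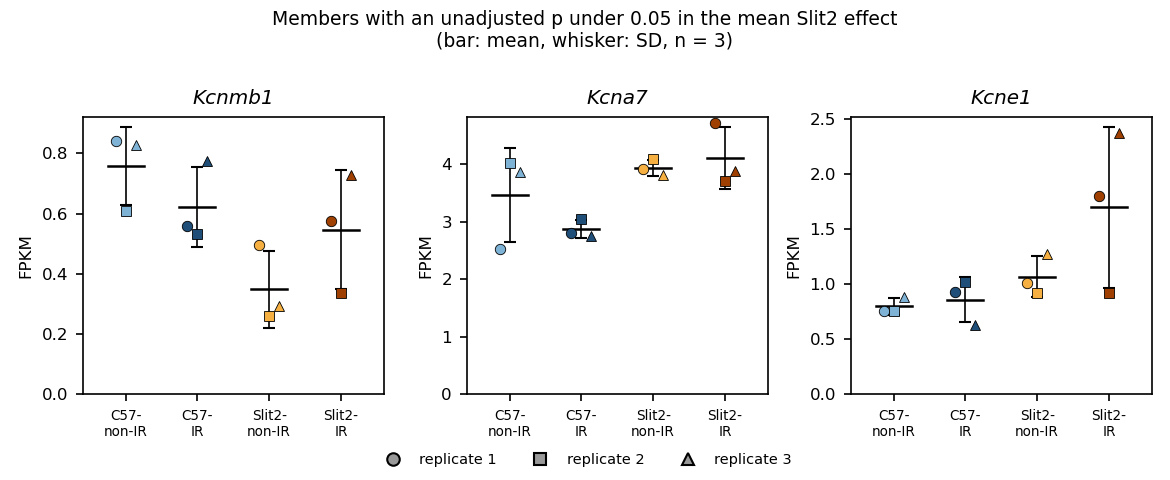
FPKM of Kcnmb1, Kcna7 and Kcne1 in the 4 groups, 1 point per library with marker shape by replicate number, a bar for the mean and a whisker for the SD (n = 3). Kcnmb1 is lowest in Slit2-non-IR hearts, and the higher Kcne1 mean in Slit2-IR hearts comes from 2 of 3 libraries.

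Whether the response to IR differed between genotypes was tested as an interaction. By limma, 0 of 50 channel genes had an adjusted p under 0.05, against 0.0% of all genes, and 1 of 50 an unadjusted one, against 1.86%. Limma-voom gave 0 and 1, against 0% and 1.65%. The gene was Kcna1, a Kv1 pore known for neuronal axons, with 0.36, 0.27 and 0.54 FPKM in C57-non-IR, 0.20, 0.56 and 0.34 FPKM in C57-IR, 0.12, 0.36 and 0.38 FPKM in Slit2-non-IR and 1.05, 0.71 and 0.63 FPKM in Slit2-IR hearts. The 3 Slit2-IR libraries lay above all the others. The IR difference was -0.03 ± 0.12 in C57BL/6J and 0.48 ± 0.12 (SE) in Slit2-Tg hearts, and the interaction was 0.51 ± 0.18 (SE), with an unadjusted p of 0.015. It was 0.41 without Slit2-IR replicate 1, with an unadjusted p of 0.038. Leaving out 1 library gave between 1 and 4 of the channel genes with an unadjusted p under 0.05. The share of all genes in those fits was 1.15% to 2.92%. Of 8 nerve and Schwann cell markers, 5 were tested, 5 were higher after IR in Slit2-Tg hearts by their log2 differences and 1 of these passed an unadjusted p of 0.05. In C57BL/6J hearts 4 of the 5 were higher after IR and 0 passed, with a median log2 difference of 0.10 against 0.12 in Slit2-Tg hearts. The sum of the 8 markers was 3.66 to 3.78 FPKM in Slit2-non-IR and 4.24 to 7.22 FPKM in Slit2-IR hearts. It was 2.94 to 4.14 FPKM in C57-non-IR and 3.51 to 5.27 FPKM in C57-IR hearts. The part of nerve in the value of Kcna1 was not tested. For Kcne4 the interaction was -0.06 (95% interval -1.10 to 0.99) and for Kcnk5 0.12 (-0.12 to 0.36).

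Some channel genes differed between libraries of the same group in a like way in all 4 groups, at shares near those of all genes. Kcnk3, Kcnh2, Kcnj3 and Kcnj14 were highest in the replicate 1 library of all 4 groups, 4 of 50 genes against 6.40% of all genes, and Kcnj8, Kcne4 and Kcnab2 were lowest there, 3 of 50 against 6.58%. Kcnh2 had 24.7, 30.6, 32.1 and 33.8 FPKM in the replicate 1 libraries and 13.3 to 26.5 FPKM in the other 8. Kcnj8 had 22.8, 19.8, 17.6 and 17.2 FPKM in the replicate 1 libraries and 18.2 to 31.5 FPKM in the other 8. Kcna5 was lowest in replicate 1 of 3 groups, with 4.66 FPKM in C57-IR, 7.26 in Slit2-non-IR and 4.87 in Slit2-IR hearts, but had 19.1 FPKM in C57-non-IR replicate 1.

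**Figure D5:**
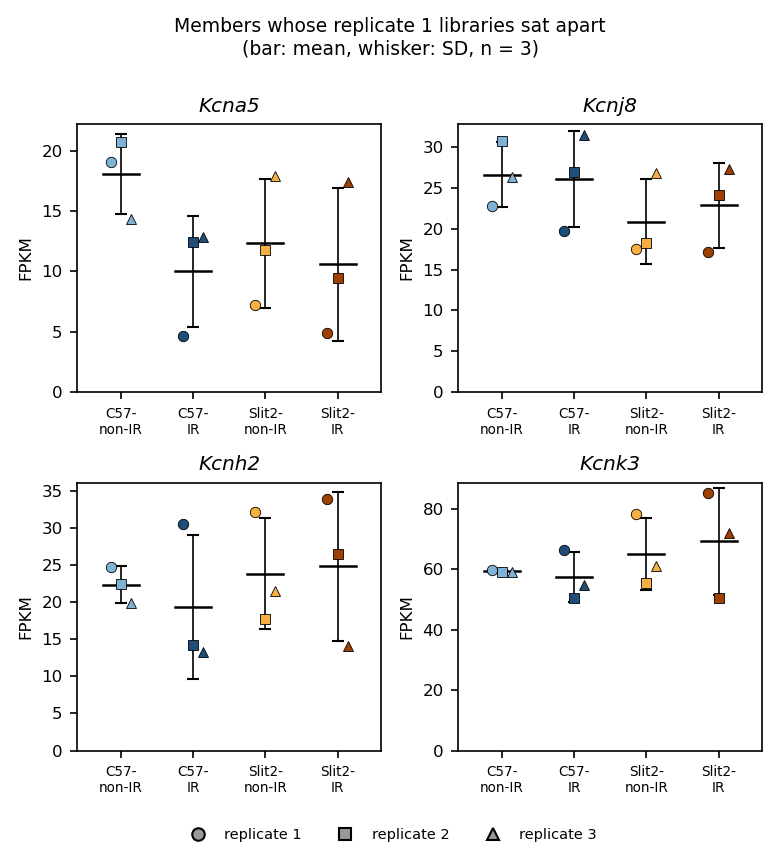
FPKM of Kcna5, Kcnj8, Kcnh2 and Kcnk3 in the 4 groups, 1 point per library with marker shape by replicate number, a bar for the mean and a whisker for the SD (n = 3). The replicate 1 points (circles) are lowest for Kcnj8 and highest for Kcnh2 and Kcnk3 in every group.

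By family, the inward rectifiers numbered 14 with 8 tested, the 2-pore channels 14 with 6 tested, Kv1 to Kv4 pores 17 with 14 tested and the calcium- or sodium-activated channels 8 with 7 tested. In the mean IR effect no inward rectifier and no calcium- or sodium-activated gene had an unadjusted p under 0.05. The 3 unadjusted calls among Kv1 to Kv4 pores were Kcna1, Kcna6 and Kcnd3. Kcna5, Kcna1 and Kcna6 are neighbours on chromosome 6, with 105 and 61.9 kb between them, but differed in level, with medians of 12.7, 0.37 and 0.16 FPKM. Kcne1 and Kcne2 lie 47.9 kb apart on chromosome 16, and Kcne2 had a median of 0 FPKM.

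Of 38 other genes of potassium transport that were listed beside the channels, 32 were tested, and 0 had an adjusted p under 0.05 in any of the comparisons by limma. The list held channel partners, the sodium-potassium pump, potassium chloride cotransporters, HCN channels, other potassium channels and transcription factors of the transient outward current. At an unadjusted p under 0.05, 4 were lower after IR in the mean effect and none was higher, against 7.97% and 7.93% of all genes. Among these were Klf15, a transcription factor known for controlling Kcnip2 with the circadian clock, Lrrc52, an auxiliary subunit of Slo channels, and Tmem175, a lysosomal potassium channel. Klf15 had 15.7, 26.2 and 22.0 FPKM in C57-non-IR, 15.1, 18.1 and 9.12 FPKM in C57-IR, 14.97, 28.6 and 23.1 FPKM in Slit2-non-IR and 13.7, 15.1 and 12.8 FPKM in Slit2-IR hearts. Its log2 difference was -0.59 ± 0.19 (SE), with an adjusted p of 0.13. Atp1a4, at 0 to 0.25 FPKM, was the only listed gene with an unadjusted p under 0.05 for Slit2 after IR. This was 1 of 32 tested, near the 3.16% of all genes.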

How the data were processed

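The authors deposited FPKM per gene and library from paired-end RNA sequencing. The submitters' notes name HISAT2 and mm10, and the counting tool, annotation release and strand use are not given in the sources used here. Reads were recovered from FPKM and gene length (100% whole within 0.01). The condition was taken from the title letters. Genes with at least 10 reads (at the median depth) in 3 libraries and 15 reads in total were tested with limma 3.58.1 (R 4.3.3) on log2(FPKM + 1), with a variance trend and all 4 groups in 1 fit. On simulated data for C57-IR against C57-non-IR (15240 genes), 181 of 200 genes changed 4-fold were recovered, with 11 false calls. The simulated libraries were independent with an assumed spread, and smaller changes were not simulated.

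A rule named 33 genes: adjusted calls, an unadjusted p under 0.05 in a mean effect, no overlap in both IR or both Slit2 contrasts in 1 direction, the 15 highest, cardiac current genes and those the study lists. Others, such as Kcnc2, Kcnj14 and Kcnab2, were named after seeing their values. Some genes of the counts are not reported here by name. Members and lists were chosen with earlier results of these data known. Deviations of same-numbered libraries from their group means correlated over 0.1 in all 3 pairs, the limit used for pairing, for IR in Slit2-Tg hearts (0.14 to 0.29) and for Slit2 after IR (0.15 to 0.36). For IR in C57BL/6J (0.08 to 0.30) and Slit2 without IR (0.04 to 0.32) they did not in 1 pair each. The main fit held no term for the replicate number in any comparison, also where the limit was met. Alternatives were a pseudocount of 0.1, other filters and scalings, only the libraries compared, a replicate block, limma-voom on recovered reads, a robust prior and leaving out each library.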

Additional observations from a re-analysis of the deposited data

How the results depend on the processing

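The count of channel genes with an adjusted p under 0.05 in the mean IR effect was 1, against 3.49% of all genes. It was 0 without the filter (1.06% of all genes), 2 with at least 10 reads in every library (Kcne4 and Kcnk5, 3.84%), 2 with upper quartile scaling (Kcnv2 and Kcnk5, 3.89%), 2 with limma-voom (Kcne4 and Kcnk5, 3.87%) and 3 with the replicate block (Kcne4, Kcnv2 and Kcnk5, 5.07%). It ranged from 0 to 2 when 1 library was left out, against 2.17% to 4.71% of all genes. In C57BL/6J hearts alone it was 0, and ranged from 0 to 1 when 1 library was left out. The 1 was Kcne4 without C57-IR replicate 1, against 1.67% of all genes in that fit. The replicate block changed no other adjusted call of a channel gene, and the counts at an unadjusted p under 0.05 were 8 with the block against 4 for IR in Slit2-Tg hearts and 3 against 1 for the interaction (13.7% and 2.65% of all genes with the block). For Slit2 without IR, 6 genes had an unadjusted p under 0.05 without the filter, against 3.6% of all genes. No named gene with an unadjusted p under 0.05 changed its direction under any alternative run. The causes of these changes were not tested. Counting error limits Kcnk5, Kcnmb1, Kcna1 and Kcna6, which had as few as 15, 25, 12 and 7 reads in a library.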
